A study of Homo sapiens with 8 samples.

Results

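The elements described here are the 280 CEBPB-bound sites that the deposited table files under K562 and Pol2 and does not mark as scrambled. They make up 280 of 1730 sites and 3095 elements in all. CEBPB is a basic leucine zipper transcription factor, and after the series title the class was read as sites bound in K562 and not in HepG2 that also carried RNA polymerase II away from promoters. The table itself does not define its classes. A scrambled version of the same site was in the table for 225 of the 280. Where both were tested, it served as the reference of its own site. The scaling and the cut-offs for calls used the tested scrambles of all classes, 1046 elements. The plasmid pool was transfected with FUGENE into K562, a line the labels call acute myelogenous leukaemia, and into HepG2, a hepatocellular carcinoma line. The groups were K562 DNA, K562 RNA, HepG2 DNA and HepG2 RNA, each with 2 libraries, 1 from either transfection of that line. All groups carried the same plasmid pool, and no untransfected cells or empty reporter were among the samples. The cells were whole cultures of established lines, and the elements were read from transfected plasmids, not from their places in the chromosomes.

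CEBPB belongs to a family whose members bind DNA as dimers and take part in liver metabolism, acute-phase responses and myeloid differentiation. Such factors occupy many more sites in a genome than those with measurable regulatory activity. RNA polymerase II found far from promoters is a known feature of active enhancers, where it makes short unstable transcripts. CRE-seq places each element in a reporter plasmid with a short barcode in the transcribed part, so that barcode reads in RNA over those in DNA measure the element's activity.

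Each element was read through up to 4 barcodes of 9 bases, and the barcodes are the only sequences of these elements that were used here. The barcodes of 5 sites are shown because the results turn on them: the highest site in K562, the highest in HepG2, a site with nearly equal values on its 3 barcodes, a site read low by 1 barcode, and a site whose HepG2 activity rested on 1 barcode. They are written as the table gives them, with the strand not stated, in falling order of RNA/DNA in the line named. Capitals mark the barcode with the highest RNA/DNA.
chr10:24858332 in K562: CAAGAACTT
chr10:24858332 in K562: actctcgtg
chr10:24858332 in K562: atcctgcca
chr10:24858332 in K562: ggttcgaac
chr10:9867491 in HepG2: GGACGACGG
chr10:9867491 in HepG2: gtgcagaag
chr10:9867491 in HepG2: cctcctatc
chr21:23563028 in K562: ATTACAGGT
chr21:23563028 in K562: gcggatgaa
chr21:23563028 in K562: tacgtatgg
chr10:17038369 in K562: TGAACTACG
chr10:17038369 in K562: ggctcgagc
chr10:17038369 in K562: agctccagg
chr10:17038369 in K562: tccttaagc
chr11:117042153 in HepG2: CCGTACAAA
chr11:117042153 in HepG2: ctactagga
chr11:117042153 in HepG2: atgtaggcc
chr11:117042153 in HepG2: gtggtcaac

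Library totals ran from 9965393 to 10193122 reads. The 280 sites took between 7.47% and 7.49% of the reads in the 4 DNA libraries, 9.50% and 9.44% in K562 RNA, and 7.25% and 7.20% in HepG2 RNA. A site was tested when at least 3 of its barcodes had 10 or more reads in every DNA library. This held for 184 of the 280 sites, 142 of them with 4 such barcodes and 42 with 3. Of the 96 sites left out, 49 had 2 passing barcodes, 34 had 1 and 13 had none. Tested sites had a median of 3081 DNA reads per library, with a range from 107 to 22061. Activity is given as log2 RNA/DNA on reads summed over barcodes, scaled so that 0 is the typical value of scrambled elements.

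In K562, the line in which these sites were bound, most lay near the scrambles and a minority lay well above them. The median log2 RNA/DNA of the 184 sites was 0.17 in transfection 1 and 0.18 in transfection 2. Over all 2332 tested elements it was 0.03 and 0.05, and over the 165 tested scrambles of the same class -0.06 and 0.0038. Of the 184 sites, 95 were above 0 in both K562 transfections and 34 below 0 in both, against 48 and 63 of the 165 scrambles. For the mean of the transfections, the 25th, 50th, 75th and 90th percentiles of the sites were -0.09, 0.12, 0.47 and 1.12. With the median over barcodes the 50th percentile was 0.077. For the scrambles those 4 percentiles were -0.22, -0.03, 0.15 and 0.32, so the sites lay further from the scrambles at the top of the distribution than in its middle.

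A site was called active when its edgeR adjusted p, taken over all tested elements, was under 0.05 and its log2 RNA/DNA was above 0 and above the 95th percentile of scrambles, 0.52 in K562. That percentile was taken over the 1046 tested scrambles of all classes. By this rule 41 of 184 sites were active in K562, 22.3% with a Clopper-Pearson interval from 16.5% to 29.0%. The interval covers counting error over sites only. Over all tested elements, scrambles included, the rule called 8.15%, over the tested sites of every class 12.8%, and of the 165 scrambles of the class it called 1. The cut-off comes from scrambles, so the rule itself keeps their share small. Over the tested scrambles of all classes that share was 2.49%. Side by side and without a test, it called 5.59% of 161 K562-bound sites without polymerase, 32.7% of 150 shared sites with it, and 7.69% of 377 HepG2-bound sites with it. A further 16 sites had a positive value past the adjusted p but below the percentile, at most 0.51, and 4 were above the percentile, at most 0.86, without passing the adjusted p. The lowest active site was at 0.56. With the median over barcodes and limma the count was 17, and with the 99th percentile of scrambles 25, beside 4.29% of all tested elements. All of those 17 were among the 41. The 25 are so by construction, since only the cut-off was raised.

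The highest site in K562 was chr10:24858332. Its log2 RNA/DNA was 2.49 and 2.67 in the K562 transfections, a fitted 2.59 ± 0.09 (SE, edgeR adjusted p = 5.87e-08). In HepG2 it stood at -0.06 and -0.22, so the lines did not overlap. The 4 barcodes shown above gave 2.98, 2.66, 2.32 and 2.24 in K562, and in HepG2 all 4 lay between -0.52 and 0.36. Its own scramble was at -0.19 ± 0.16 in K562 (SD, n = 2 transfections). With 6520 and 6723 DNA reads, the site supplied 3.40% and 3.91% of the K562 RNA reads of the tested sites of the class, from 0.892% and 0.911% of their DNA reads.

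The next sites in K562 fell into a close group. The site chr10:17038369 was at 2.19 and 2.41 in K562 and at 0.85 and 0.70 in HepG2. It rested on 491 and 522 K562 DNA reads, and its 4 barcodes gave 2.71, 2.67, 2.13 and -0.0069. The lowest barcode, tccttaagc, had 27 DNA and 7 RNA reads in transfection 1 and 24 and 62 in transfection 2. The site chr21:23563028 was at 2.27 and 2.32, with its 3 barcodes at 2.34, 2.28 and 2.27. The site chr5:43075624 was at 2.29 and 2.28, with 3 barcodes from 2.23 to 2.42. The site chr6:7151008, the most deeply read of all, was at 2.22 in each transfection, with 4 barcodes from 2.12 to 2.49. The 4 sites thus lay close together in K562. Fitted SEs of the 4 ranged from 0.05 to 0.18, so their order from 2.22 to 2.31 is within the error. Their edgeR adjusted p-values ran from 1.92e-08 for chr6:7151008 to 1.84e-05 for chr10:17038369.

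Below them came a site on chromosome 8 at 1.76 and 2.33 on 251 and 167 DNA reads. Then followed chr10:103489821 at 1.63 and 1.83, chr18:3676147 at 1.76 and 1.53, and chr3:49387284 at 1.44 and 1.71. The site chr1:151284206 stood at 1.38 and 1.70, chr3:5036755 at 1.49 and 1.45, and chrX:153267682 at 1.30 and 1.60. All 12 sites were above the scramble percentile in each K562 transfection, and edgeR adjusted p for these 7 ran from 1.04e-07 for chr3:5036755 to 0.0208 for chr1:151284206. The call of chr1:151284206 was lost without either K562 transfection, at 1.70 and 1.39, and that of the chromosome 8 site without its highest barcode. The other 29 active sites lay between 0.56 and 1.42.

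Barcodes of an active site mostly pointed the same way. In K562, 35 of the 41 active sites had every barcode above 0, 21 had every barcode above 0.5, and 11 had every barcode above 1. Since the call uses the sum of the same barcodes, such counts follow in part from the call in either line. They are no independent support for it. Without the highest barcode of each element 38 sites were active, 33 of them among the 41. Over the 184 sites the median SD between barcodes was 0.36 and that between transfections 0.15, so barcodes of a site spread further than transfections. The site chr2:169986622, singled out after its values were seen, showed the widest spread between K562 barcodes of the 41 active sites. It was at 1.40 and 0.95 in K562 and at 1.49 and 1.69 in HepG2, with barcodes from -0.75 to 3.98 and from -0.18 to 4.41. Transfections lay closer together at sites of greater depth. In the 62 sites with the fewest DNA reads, 107 to 2097 per library, the median SD between K562 transfections was 0.37, and in the 61 with the most, 4469 to 22061, it was 0.07. The number of active sites in K562 was 12 of 62 at the lowest depth, 11 of the 61 between and 18 of the 61 at the highest, and the median activity 0.07, 0.13 and 0.19. Across the 184 sites, depth and K562 activity had a Spearman rho of 0.22, given as a description since both use the same DNA libraries, and whether depth had a part in the calls was not tested.

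In HepG2, where these sites were by their class not bound, the median was 0.06 and 0.09 in the transfections, against 0.07 and 0.06 over all tested elements. It was -0.05 and -0.01 over the scrambles of the class. The sign of the HepG2 median depended on the scaling: with TMM over all elements the median of the 184 sites was -0.0093. The rule called 27 of 184 sites active, 14.7% with a Clopper-Pearson interval from 9.90% to 20.6%, beside 14% of all tested elements and 4 of the 165 scrambles of the class. The rule itself keeps the share of scrambles small, and over those of all classes it was 4.59%. The share of the 184 sites was thus near that of all elements. Among sites of any class the share was 21.7%. Side by side it was 31.0% for HepG2-bound sites with polymerase and 36.7% for shared sites with it. Without polymerase it was 8.07% for K562-bound, 14.8% for HepG2-bound and 19.8% for shared sites. The percentile of scrambles was 0.66 in HepG2, the lowest active site was at 0.66, and 18 sites with a positive value past the adjusted p stayed below the percentile, at most 0.63. With the 99th percentile 14 of the 27 remained, beside 7.12% of all tested elements.

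The highest site in HepG2 was chr10:9867491. It was at 5.42 and 5.81 in HepG2, a 49.1-fold excess (edgeR adjusted p = 1.41e-08), and at 0.86 and 0.34 in K562. On 617 and 536 HepG2 DNA reads it had 17402 and 19465 RNA reads, and in K562 859 and 579. Its 3 barcodes shown above gave 6.03, 5.84 and 5.21, and in K562 they lay between 0.28 and 0.63. Its K562 call, at a fitted 0.63, was lost in several settings, among them without K562 transfection 1, at 0.34. The own scramble of chr10:9867491 was at -0.05 and 0.05 in HepG2, so the site stood far above both references.

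Of the other 7 highest sites in HepG2, 6 were active in K562 too. The site chr10:103489821 was at 3.77 and 3.86 in HepG2, chr3:5036755 at 3.45 and 3.44, and chr21:23563028 at 2.88 and 2.93. The site chrX:153267682 was at 2.45 and 2.86, chr1:219262426 at 2.51 and 2.42, and chr6:16323056 at 1.94 and 2.09. The K562 values of chr1:219262426 were 1.12 and 1.23 and those of chr6:16323056 1.12 and 1.46. For each of these 6 the HepG2 values lay above the K562 values, and no barcode was below 1.86 in HepG2. Their edgeR adjusted p in HepG2 ran from 3.70e-10 for chr3:5036755 to 3.11e-07 for chr6:16323056.

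The remaining site, chr11:117042153, had its HepG2 activity on 1 barcode. It was at 2.15 and 1.96 in HepG2 and at 0.03 and -0.28 in K562. The barcode CCGTACAAA gave 2.93 in HepG2, from 1563 DNA and 8079 RNA reads in transfection 1, and the other 3 gave 0.77, 0.26 and -0.21. In K562 the same barcode was the lowest of the 4, at -0.40. Without its highest barcode the site was at 0.49 and no longer active. In all, 18 of the 27 active sites had every barcode above 0 in HepG2, and 20 of the 27 stayed active without the highest barcode.

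Activity in the lines overlapped in part. Of the 184 sites, 19 were active in both lines, 22 in K562 alone, 8 in HepG2 alone and 135 in neither. Thus 19 of the 41 sites active in K562 were active in HepG2 too. Side by side and without a test, it was 5 of 9 for K562-bound sites without polymerase. For shared sites it was 37 of 49 with polymerase and 9 of 13 without. For HepG2-bound sites it was 24 of 29 with polymerase and 10 of 23 without. Being active in a single line is not itself a difference between lines, so the difference was tested in edgeR as an interaction. It called 27 sites higher in K562, 14.7%, beside 3.95% of all tested elements, and 14 sites higher in HepG2, 7.61%, beside 12.8%. Over the tested sites of every class those shares were 5.29% and 19.1%. Among all elements HepG2-higher calls outnumbered K562-higher ones, and among these sites the order was turned in this fit. Side by side, 8 of 161 K562-bound sites without polymerase and 13 of 150 shared sites with it were higher in K562, and 18 and 50 higher in HepG2. Of the 27 sites higher in K562, 20 were active there. Of the 22 active in K562 alone, 16 were called higher in K562 and 6 were not called different. Of the 19 active in both, 4 were higher in K562, 8 higher in HepG2 and 7 not called. The counts rested on all transfections: without HepG2 transfection 1 or 2 there were 15 and 13 sites higher in K562, and 8 and 9 higher in HepG2. Without K562 transfection 1, 21 sites were higher in K562 and 20 in HepG2, so the counts were nearly equal. Without K562 transfection 2 there were 20 and 16. With the median over barcodes and limma there were 5 higher in K562 and 7 higher in HepG2. The order was thus not turned in that setting.

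The largest difference towards K562 was that of chr10:24858332, at 2.73 ± 0.12 (fitted difference of log2 RNA/DNA and SE, edgeR adjusted p = 5.08e-07). Next were chr10:17038369 at 1.54 ± 0.24, chr14:91891886 at 1.49 ± 0.42 and chr1:223976821 at 1.45 ± 0.36. The site chr1:224691282 followed at 1.39 ± 0.16 and chr6:20458679 at 1.36 ± 0.10. Their sources differed. The site chr6:20458679 was at 1.40 and 1.38 in K562 and at -0.03 and 0.07 in HepG2, and chr1:224691282 at 0.88 and 1.01 against -0.65 and -0.27. The site chr1:223976821 was at 0.33 and 1.03 in K562, not called active, and at -0.95 and -0.58 in HepG2, where it was called low. The site chr14:91891886 was at 1.24 and 1.21 against 0.10 and -0.78, with K562 barcodes from -1.73 to 2.09. The edgeR adjusted p of these 5 ran from 1.10e-05 for chr6:20458679 to 0.0406 for chr14:91891886, and the differences of chr14:91891886 and chr1:223976821 were each lost in several settings, among them leaving out K562 transfection 2, at 1.51 and 1.10.

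The largest difference towards HepG2 was that of chr10:9867491, at -4.99 ± 0.23 (K562 minus HepG2, SE, edgeR adjusted p = 6.51e-07). It was followed by chr11:117042153 at -2.18 ± 0.15, chr10:103489821 at -2.08 ± 0.12 and chr3:5036755 at -1.98 ± 0.08. The site chr11:59305008 was at -1.52 ± 0.27 and chr1:219262426 at -1.28 ± 0.10. Only chr11:117042153 and chr11:59305008 of these 6 were not active in K562. The site chr11:59305008 was at -0.28 and 0.11 in K562 and at 1.41 and 1.45 in HepG2, on barcodes from -3.42 to 2.90 in HepG2. Without the highest barcode the differences of the chromosome 11 sites were -0.40 and -0.65 and no longer called. Pearson's r between K562 and HepG2 activity was 0.42 over the 184 sites and Spearman's rho 0.38, as a description, since the sites share plasmid pool and libraries. Between the transfections of a line, r was 0.67 in K562 and 0.92 in HepG2, and rho 0.62 and 0.72.

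Each site was also set against the scrambled element listed under its own name. Both were tested for 127 of the 184 sites, and edgeR compared their RNA/DNA within each line over all 901 such pairs of the series. In K562, 29 of 127 sites were above their scramble, beside 14.9% of all pairs, and 2 below, beside 4.55%. In HepG2, 31 were above, beside 29.1% of all pairs, and 10 below, beside 8.44%. The median of site minus scramble over the 127 pairs was 0.22 and 0.24 in the K562 transfections and 0.17 and 0.09 in those of HepG2. Fitted over all 901 pairs the median was 0.10 in K562 and 0.17 in HepG2. Of the 29 active K562 sites with a tested scramble, 22 were called above it, and of the 18 in HepG2 all 18 were. A further 7 sites in K562 and 13 in HepG2 were called above their scramble without being active. In each of these 20 cases the scramble had a mean below 0, which picking such pairs favours. The fit counts the site and scramble columns of a library as separate, and limma on the differences within each library called 20 above and 2 below in K562, and 25 above and 4 below in HepG2. Without K562 transfection 1 the K562 counts were 29 above and 7 below, and without K562 transfection 2 they were 19 and 1. Without HepG2 transfection 1 or 2 there was 1 below in K562. Without HepG2 transfection 1 the HepG2 counts were 19 above and 2 below, and without HepG2 transfection 2 they were 24 and 3.

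The largest excess over the own scramble in K562 was 2.77 ± 0.12 (SE) at chr10:24858332. It was 2.50 ± 0.14 at chr6:7151008, 2.26 ± 0.18 at chr5:43075624, 2.15 ± 0.13 at chr21:23563028 and 1.88 ± 0.13 at chr18:3676147. In HepG2 it was 5.62 ± 0.24 at chr10:9867491, 3.86 ± 0.14 at chr10:103489821 and 3.29 ± 0.11 at chr3:5036755. The HepG2 values of chr21:23563028 and chr1:219262426 were 2.75 ± 0.13 and 2.15 ± 0.11. Their scrambles lay between -0.28 and 0.31 in the line concerned, near the typical scramble, and edgeR adjusted p for these 10 values was at most 3.14e-07 in K562 and 1.15e-09 in HepG2.

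Of the 5 largest deficits against the own scramble in HepG2, 3 were at sites whose scramble was itself active. In HepG2 the largest deficit was that of chr7:154468266, at -1.51 ± 0.15 (SE, edgeR adjusted p = 1.89e-06). The site was at -0.75 and -0.40 and its scramble at 0.95 ± 0.07 (SD, n = 2), which made the scramble one of the 4 active ones of the class. The scrambles of chr12:112554593 and chr1:118156381 were active too, at 0.71 ± 0.04 and 0.68 ± 0.06, with the sites at 0.09 ± 0.17 and 0.09 ± 0.15. The deficits were -0.62 ± 0.17 and -0.58 ± 0.12 (SE). That of chr12:112554593 turned to 0.36 without the highest barcode of each element, since its scramble ranged from -0.45 to 2.81 over barcodes. The sites chr2:169630779 and chr6:21102140 were at -0.88 ± 0.33 and -0.71 ± 0.16 relative to scrambles at 0.35 and 0.49. At chr2:169630779 the scramble was at -0.94 and -1.40 in K562, and there the site, at -0.02 and 0.23, was called above it by 1.23 ± 0.33 (SE, edgeR adjusted p = 0.019), a call lost without K562 transfection 2, at 0.92. In K562 the called deficits were -0.51 ± 0.12 at chr6:31789250 and -0.64 ± 0.18 at chr3:194293076. Of these 7 deficits, that of chr7:154468266 alone was called in every setting run on it. The fourth active scramble, that of chr6:7168564, was active in both lines, at 1.24 ± 0.07 in K562 and 2.70 ± 0.25 in HepG2, and it lost both calls without its highest barcode, at 0.51 and 0.46.

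Few of the sites were called low, which needed a negative value past the adjusted p and below the 5th percentile of scrambles. In K562, 4 of 184 were low, beside 1.24% of all tested elements, and in HepG2 5, beside 2.44%. The K562 sites were chr3:44481948 at -2.58 and -1.95, on only 28 and 27 RNA reads, chr9:131067083 at -0.67 in each transfection, chr1:46753100 at -0.46 and -0.78, and chr15:57179911 at -0.50 and -0.72. The scramble of chr1:46753100 was itself low, at -0.59 ± 0.03 (SD, n = 2), so the site did not differ from it beyond the error, at -0.01 ± 0.15 (SE). In HepG2 the low sites were chr1:223976821, chr6:15211848 at -0.65 and -0.58, chr7:65392729 at -0.64 and -0.56, chr7:154468266 at -0.75 and -0.40, and chr2:169630779 at -0.61 and -0.41. No site was low in both lines or active in one and low in the other. The low call of chr1:223976821, at -0.77, was lost with the transfection number as a block (edgeR adjusted p = 0.055, 0.0149 to 0.463 over the alternatives). Without K562 transfection 1 none of the 4 K562 sites kept its call, without K562 transfection 2 or HepG2 transfection 2 there was 1 low site in K562, and without HepG2 transfection 1 there were 2. In HepG2, leaving out transfection 1 or 2 of that line gave 0 and 3.

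Some of the sites lay near each other in the genome. Of the 280 sites, 9 pairs lay within 10 kb, and in 8 of them both sites were tested. In none of the 8 were both sites active in the same line, and in 3 pairs for K562 and 5 for HepG2 a single site of the pair was. The pairs are too few to say whether neighbours shared activity, and 3 of the 8 came from 1 cluster on chromosome 5. Of the 24 tested pairs within 100 kb, both sites were active in 1 pair for K562 and in 2 for HepG2. A single site was active in 11 and 12. Many of the 24 pairs share sites of 1 stretch of chromosome 5, from chr5:42992489 to chr5:43075624, and so are not independent. The K562 pair with both sites active, chr5:42995098 and chr5:43075624, lay there too. The closest pair, chr7:154468266 and chr7:154468480, was 214 bp apart, so the elements may share sequence, and the second had too few barcodes to be tested. With no minimum count, chr7:154468480 was called active in HepG2 at 1.65, where chr7:154468266 was called low. On chromosome 5, chr5:42992489, chr5:42993367 and chr5:42995098 lay 878 and 1731 bp apart. Their K562 values were -0.34 ± 0.07, -0.05 ± 0.05 and 0.69 ± 0.09 (SD, n = 2), and their HepG2 values -0.37 ± 0.08, -0.10 ± 0.04 and 0.87 ± 0.02. Only the last was active, in both lines (edgeR adjusted p = 9.28e-05 in K562 and 6.65e-06 in HepG2), and its K562 call was lost without K562 transfection 1, at 0.63. The pair chr5:43008501 and chr5:43009325, 824 bp apart, had means between -0.15 and 0.23 in both lines. Each position is the single coordinate in the site's name. The submitters' processing notes name hg19 without saying what it was used for, and no annotation of that build was used, so no site was placed in a gene.

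Active sites were spread over the chromosomes. The 25 tested sites of chromosome 1 held 7 that were active in K562 and 2 in HepG2, and the 9 of chromosome 10 held 4 and 3. None of the 10 tested sites of chromosome 19 was active in either line, and their median was -0.04 in K562 and -0.05 in HepG2. The 23 of chromosome 6 held 3 in each line. These counts are small and were not tested against each other.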

How the data were processed

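Barcode reads were counted in DNA and RNA of 2 transfections of K562 and 2 of HepG2. Per the file headers, the values the authors deposited are raw counts of reads for each barcode in each library. The submitters' processing notes name cutadapt and hg19 but give neither a version nor a role, and the counter is not stated there.

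A barcode was used if none of the DNA libraries had under 10 reads of it, and an element if 3 or more of its barcodes were used (8868 of 12380 barcodes, 2332 elements). Reads were summed per element and scaled by TMM over the tested scrambles of all classes. edgeR 4.0.16 (quasi-likelihood, R 4.3.3) was fitted to all 8 libraries in 4 groups, on all elements, with p-values adjusted by Benjamini-Hochberg. The shared spread gave a common dispersion of 0.019. Site and scramble were compared in 1 fit with 16 columns per pair, which come from the same 8 libraries. Values per transfection use a pseudocount of 1. Fits were tested on simulated data. Alternatives used DESeq2 1.42.0, limma 3.58.1, other count minimums, barcode summaries and left-out transfections.

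Replicate numbers mark a transfection and a sequencing lane per the labels. Deviations of same-numbered libraries correlated at 0.241 (K562 DNA and RNA), 0.301 (HepG2 DNA and RNA) and 0.17 to 0.584 over all 6 pairs of groups. The highest, 0.584, was between HepG2 DNA and K562 DNA, which share no transfection. Transfections are independent per the labels, but same-numbered libraries thus moved together across the lines. Reads carry no molecular identifiers. The Clopper-Pearson intervals cover the counting error over sites only. They take the sites as independent and leave out the spread between transfections.

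The members and lists were chosen with earlier results of these data known. Named sites are the 12 highest active in K562, the 8 in HepG2, the 6 largest called line differences each way, up to 6 low sites per line, the 5 largest called differences from the own scramble each way and line, up to 4 pairs within 10 kb, nearest first, and the 3 highest active scrambles per line. The position of 1 named site is not reported here.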

Additional observations from a re-analysis of the deposited data

Results flagged for a closer look

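Among the sites named by the rule, 21 differed between the lines by the interaction test in edgeR, which is what brings them here. The naming rule itself picks the largest called line differences each way, so part of the 21 differ by construction. The count is therefore not to be set against the shares of all tested elements, 3.95% higher in K562 and 12.8% higher in HepG2. The values are fitted K562 minus HepG2 differences of log2 RNA/DNA. Higher in K562 were chr10:24858332 (2.73), chr10:17038369 (1.54), chr14:91891886 (1.49), chr1:223976821 (1.45), chr1:224691282 (1.39), chr6:20458679 (1.36), chr3:49387284 (1.24), chr5:43075624 (0.99), chr6:7151008 (0.89), chr7:65392729 (0.89), chr2:169630779 (0.61) and chr18:3676147 (0.53). Of these 12, chr1:223976821, chr7:65392729 and chr2:169630779 were low in HepG2 and not active in K562. Higher in HepG2 were chr10:9867491 (-4.99), chr11:117042153 (-2.18), chr10:103489821 (-2.08), chr3:5036755 (-1.98), chr11:59305008 (-1.52), chr1:219262426 (-1.28), chrX:153267682 (-1.20), chr6:16323056 (-0.72) and chr21:23563028 (-0.61). Of these 9, chr21:23563028 had the smallest difference and was above 2 in every transfection of either line.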

How the results depend on the processing

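Of 1114 recomputed values of named elements, 947 kept direction and call, 164 kept direction and lost the call, and 3 changed sign. Those were chr12:112554593 against its scramble in HepG2, 0.36 without the highest barcode, and that scramble in HepG2, -0.10 by the barcode median and -0.13 without the highest barcode. Of 101 such values, 53 kept their call under every alternative. With the replicate block, active counts stayed at 41 in K562 and 27 in HepG2, sites higher in K562 were 24 and in HepG2 15, and the low call of chr1:223976821 in HepG2 was lost at -0.77; no other named call changed.

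With the median over barcodes, active K562 sites were 17, low ones 1 in K562 and 0 in HepG2, and line differences 5 towards K562 and 7 towards HepG2. With the 99th percentile of scrambles 25 were active in K562 and 14 in HepG2, and 1 was low in each. Without the highest barcode low sites were 0 in K562 and 1 in HepG2, sites above their scramble in K562 18, and sites below it 0 in K562 and 3 in HepG2. With no minimum count 0 were low in K562 and 6 below their scramble in HepG2, and limma on pair differences gave 4 of the latter. The K562 median of 0.12 became 0.0837 (TMM over all elements), 0.0968 (no minimum count), 0.14 (at least 50 reads per barcode), 0.0767 (barcode median) and 0.13 (highest barcode left out). The HepG2 median of 0.07 became -0.0093 (TMM over all elements) and 0.0349 (barcode median). The cause of these shifts was not tested. The median SD between K562 transfections was 0.37 at sites with 107 to 2097 DNA reads and 0.07 at those with 4469 to 22061, and the part of depth in the calls was not tested. Under the rule on barcodes 96 sites were not tested.

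Leaving out a transfection gave 28 to 38 active and 1 to 3 low sites in K562, 21 to 27 active and 0 to 6 low in HepG2, 13 to 21 higher in K562 and 8 to 20 higher in HepG2. Against the own scramble it gave 19 to 29 above and 1 to 7 below in K562, and 19 to 34 above and 2 to 11 below in HepG2. Medians were 0.18 to 0.19 in K562 and 0.06 to 0.09 in HepG2.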

Other observations

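A few of the 96 sites with too few barcodes had high ratios. With no minimum count, 6 of the 96 were called active in K562 and 6 in HepG2 by edgeR. The main setting called 8.15% of all tested elements in K562 and 14% in HepG2. The share of all elements with no minimum count is not reported here, so the counts are not read as an excess. The site chr2:198794503 had 255 and 270 DNA reads in HepG2 and 5071 and 6285 RNA reads, a fitted log2 RNA/DNA of 5.04. In K562 it had 352 and 249 DNA reads and 303 and 226 RNA reads, at 0.07. The site chr2:10197309 was at 2.46 in K562 and 2.64 in HepG2 on 128 to 195 DNA reads per library. The site chr11:59728017 was at 1.87 in K562 and -0.61 in HepG2. These sites were chosen after their values were seen, and each had 2 passing barcodes.

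The composition of the barcode moved with the reading in HepG2. Among the 694 barcodes of the tested sites, those with 2 G or C bases had a median log2 RNA/DNA of 0.36 in HepG2 and those with 7 had -0.18. Over the 3965 barcodes of all tested scrambles the medians were 0.08 and -0.16. Within elements, deviation from the element's median and the number of G or C bases had a Spearman rho of -0.16 for the sites and -0.11 for the scrambles in HepG2, and of -0.01 and -0.02 in K562. These are descriptions over barcodes that share elements and libraries, and their part in the calls was not tested.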
